A study of Mus musculus with 3 samples.

Results

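The genes described here are 9 structural genes of central myelin: Mbp, Mag, Mog, Mobp, Cnp, Cldn11, Mal, Ermn and Gjc3. They were taken by exact gene symbol from a table of 54532 genes, and each of the 9 was found once. RNA-seq was made from the hippocampus of 10-month-old mice on a C57BL/6 background, with 1 library for each of 3 genotypes. The first was wild type (WT) and the second was PS19. PS19 mice express human tau from a transgene under the mouse Prnp promoter, which is most active in neurons, and develop tau pathology. The third genotype, labelled "PS19, Zbp1+-" and written PS19 Zbp1+/- here, carries PS19 together with loss of 1 allele of Zbp1, the gene of a sensor of nucleic acids in the Z form. The labels give neither the sex of the mice nor whether animals were pooled. The question is what the tau transgene does to hippocampal expression and whether lower Zbp1 dosage alters it. With 1 library per genotype no difference below has a replicate check, no p-value is given, and intervals cover counting error only.

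Myelin is the multilayered membrane that oligodendrocytes wrap around axons in the brain. Its compact layers are held together by small, strongly charged or membrane-spanning proteins, while the less compact parts keep cytoplasm, adhesion molecules and junctions. The genes of these proteins are switched on together when an oligodendrocyte matures, under transcription factors that include Sox10 and Myrf. In the hippocampus myelin lies mainly in the alveus, the fimbria and the perforant path, so the amount in a sample also depends on how much of these fibre tracts was taken.

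The 9 genes lie on 8 chromosomes, and only Mal and Ermn share one, chromosome 2. To show what stands before genes whose ratios between libraries were alike or apart, the RefSeq (GRCm38.p6) bases just upstream of 4 of them are printed below, cut so that no annotated exon is included. Cldn11 is shown because its levels differed most between libraries, Cnp because its difference between PS19 Zbp1+/- and PS19 was the smallest, and Mobp and Mag as genes close to the middle of the group. Capitals mark ACAAAG or ACAATG on either strand, letters that SOX factors bind, and CTGGCAC or CTGGTAC on either strand, letters that Myrf binds.
Cldn11, chr3:31149670-31149919, plus strand: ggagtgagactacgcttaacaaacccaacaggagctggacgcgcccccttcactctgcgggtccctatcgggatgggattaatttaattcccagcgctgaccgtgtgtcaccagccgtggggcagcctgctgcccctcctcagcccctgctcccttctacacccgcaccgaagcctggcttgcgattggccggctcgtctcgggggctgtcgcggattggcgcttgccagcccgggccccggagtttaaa
Cnp, chr11:100574689-100574903, plus strand: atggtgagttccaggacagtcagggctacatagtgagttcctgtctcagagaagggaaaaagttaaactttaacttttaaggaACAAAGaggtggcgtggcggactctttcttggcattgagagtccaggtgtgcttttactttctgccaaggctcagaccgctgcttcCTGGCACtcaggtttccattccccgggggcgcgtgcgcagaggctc
Mobp, chr9:120149492-120149706, plus strand: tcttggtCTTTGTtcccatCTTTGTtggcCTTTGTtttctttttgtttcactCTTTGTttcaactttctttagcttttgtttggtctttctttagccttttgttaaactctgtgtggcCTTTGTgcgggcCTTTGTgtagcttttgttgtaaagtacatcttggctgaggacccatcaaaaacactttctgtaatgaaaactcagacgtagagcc
Mag, chr7:30914923-30915172, minus strand: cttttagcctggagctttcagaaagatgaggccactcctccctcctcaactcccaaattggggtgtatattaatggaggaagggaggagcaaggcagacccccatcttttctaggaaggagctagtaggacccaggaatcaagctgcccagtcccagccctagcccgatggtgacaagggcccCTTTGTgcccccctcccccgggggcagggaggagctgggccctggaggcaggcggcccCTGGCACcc
The Mobp stretch held 6 SOX matches, all of the letters CTTTGT, and no Myrf match. The Cnp and Mag stretches each held 1 SOX and 1 Myrf match, and the Cldn11 stretch held neither. RefSeq windows of 250 upstream bases were at hand for 8 of the 9 genes. A SOX match was present in 4 of the 8 (Cnp, Ermn, Mag and Mobp), against 25.2% of 32851 upstream windows over all genes. A Myrf match was present in 3 of the 8 (Cnp, Mag and Mog), against 5.93% of all windows. Of 2 further motifs searched on both strands, CAGCTG (an E-box) was present in 0 of the 8, against 13.0% of all windows, and TATAAA (the TATA box) in 0 of the 8, against 12.4%. Mag entered with 3 alternative windows and counted if any of them matched. These are matches of letters and not measured binding, and their part in the ratios was not tested. With a SOX or Myrf match, the read ratio of PS19 to WT was 1.52 (Ermn), 1.69 (Cnp), 1.75 (Mog), 1.76 (Mag) and 1.76 (Mobp). Without either it was 1.61 (Gjc3), 1.78 (Mal) and 2.17 (Cldn11).

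The values are in FPKM, fragments scaled by gene length and library size, and whole reads could be recovered from them. These came to 16746085 (WT), 16400328 (PS19) and 17109734 (PS19 Zbp1+/-). The targeted gene Zbp1 had 5, 91 and 0 reads in the same order. A count of 0 allows up to 3 reads, below the 41.7 reads that 0.5 times the PS19 level would give at this library's size, while the 5 WT reads are too few for such a comparison. Xist, transcribed from the inactive X chromosome of females, had 11062, 13350 and 0 reads, and the Y-linked Ddx3y had 0, 0 and 711. Sex therefore cannot be told apart from genotype in either comparison that uses PS19 Zbp1+/-. Genes with at least 1 read numbered 24741, 25397 and 21408, so weakly expressed genes were seen less often in PS19 Zbp1+/-. Each of the 9 myelin genes had 530 reads or more in every library.

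All 9 genes had their highest level in PS19 and their lowest in PS19 Zbp1+/-, with WT between. Their summed FPKM was 692 (WT), 1239 (PS19) and 471 (PS19 Zbp1+/-). They took 0.406% of all recovered reads in WT (exact 95% interval 0.403% to 0.409%), 0.736% in PS19 (0.732% to 0.740%) and 0.248% in PS19 Zbp1+/- (0.245% to 0.250%), a share that does not rest on the scaling of the FPKM values. In reads per library size the group stood at 1.77-fold of WT in PS19 (1.76 to 1.79). PS19 Zbp1+/- stood at 0.384-fold of PS19 (0.379 to 0.388) and at 0.680-fold of WT (0.672 to 0.688). In bulk tissue fewer oligodendrocytes and less myelin RNA per oligodendrocyte cannot be told apart.

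**Figure D1:**
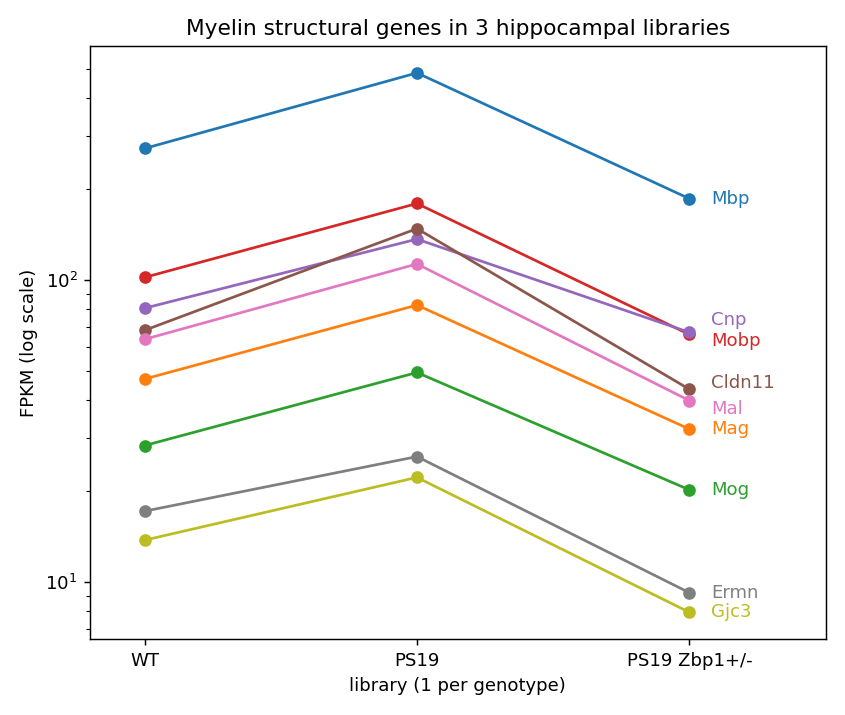
FPKM (log scale) of the 9 myelin structural genes in the WT, PS19 and PS19 Zbp1+/- libraries, 1 point per library, joined by lines for each gene. Every gene peaks in PS19 and is lowest in PS19 Zbp1+/-, and the order of the genes differs only where Cldn11 crosses Cnp (in PS19) and Cnp crosses Mobp (in PS19 Zbp1+/-).

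Mbp (chromosome 18, 82475146 to 82585637, plus strand) encodes myelin basic protein, which holds the cytoplasmic faces of compact myelin together. It was the most abundant of the 9 per gene length, at an FPKM of 272 (WT), 484 (PS19) and 185 (PS19 Zbp1+/-), from 39418, 70246 and 24670 reads. By FPKM its rank among protein-coding genes was 73 (WT), 27 (PS19) and 150 (PS19 Zbp1+/-). The read ratio of PS19 Zbp1+/- to PS19 was 0.384 (95% interval 0.378 to 0.389), and that to WT was 0.682 (0.671 to 0.693). The table gives 1 value per gene, so the many splice forms of Mbp were not told apart.

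Mobp (chromosome 9, 120149707 to 120181484, plus strand) encodes another small basic protein of compact myelin. Its FPKM was 102 (WT), 179 (PS19) and 65.9 (PS19 Zbp1+/-), from 12028, 21166 and 7143 reads. Its read ratios were 1.76 for PS19 over WT (1.72 to 1.80), 0.369 for PS19 Zbp1+/- over PS19 (0.359 to 0.379) and 0.647 for PS19 Zbp1+/- over WT (0.629 to 0.667). The first 2 intervals overlapped those of Mbp and the third did not, lying just below it. Mal (chromosome 2, 127633226 to 127656695, minus strand) encodes a proteolipid of membrane rafts in compact myelin. Its FPKM was 63.5, 113 and 39.8 in WT, PS19 and PS19 Zbp1+/-, from 3044, 5416 and 1751 reads. Its ratio of PS19 to WT, 1.78 (1.70 to 1.86), matched that of Mbp within counting error, while its ratio of PS19 Zbp1+/- to PS19, 0.353 (0.334 to 0.373), was lower.

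Cnp (chromosome 11, 100574904 to 100591729, plus strand) encodes a phosphodiesterase that keeps cytoplasmic channels in myelin open. It had an FPKM of 80.5 (WT), 136 (PS19) and 67.0 (PS19 Zbp1+/-), from 5054, 8572 and 3857 reads. Cnp differed least between PS19 Zbp1+/- and the other libraries, at 0.491 of PS19 (0.473 to 0.511) and 0.832 of WT (0.798 to 0.868), although Mog differed least from WT after the correction for GC content and length. Neither of these intervals overlapped that of any other of the 9 genes. Of its exon bases 4.23% overlap Dnajc7 on the opposite strand, which had 2299, 2046 and 1915 reads, so some reads of the pair may be assigned to either if strand was not used.

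Mag (chromosome 7, 30899176 to 30914873, minus strand) encodes an adhesion protein of the innermost myelin layer that faces the axon. Its FPKM was 46.9, 82.4 and 32.0 in WT, PS19 and PS19 Zbp1+/-, from 3297, 5802 and 2065 reads. Mog (chromosome 17, 37010743 to 37023398, minus strand) encodes a glycoprotein of the outermost layer. Its FPKM was 28.3, 49.3 and 20.2, from 831, 1453 and 544 reads. The read ratio of PS19 to WT was 1.76 for Mag (1.68 to 1.83) and 1.75 for Mog (1.60 to 1.90). The ratio of PS19 Zbp1+/- to PS19 was 0.389 for Mag (0.370 to 0.409) and 0.409 for Mog (0.370 to 0.452). All 3 intervals of both genes overlapped those of Mbp. After a correction for GC content and gene length the difference of log2(FPKM + 1) between PS19 Zbp1+/- and WT was -0.74 for Mag and -0.28 for Mog, so the likeness of the pair depends on that setting.

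Cldn11 (chromosome 3, 31149920 to 31164324, plus strand) encodes claudin 11, which forms the tight junctions between myelin layers. Its FPKM was 68.0 (WT), 148 (PS19) and 43.4 (PS19 Zbp1+/-), from 2195, 4772 and 1285 reads. It had the widest swing of the group, with a read ratio of 2.17 for PS19 over WT (2.06 to 2.28) and of 0.294 for PS19 Zbp1+/- over PS19 (0.276 to 0.313). Its ratio of PS19 Zbp1+/- to WT was 0.638 (0.595 to 0.684), which overlapped that of Mbp. Cldn11 is also expressed by meningeal cells, whose markers are given further on.

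Ermn (chromosome 2, 58045113 to 58052864, minus strand) encodes ermin, a protein that links myelin to the actin cytoskeleton in mature oligodendrocytes. Its FPKM was 17.1, 26.0 and 9.21 in WT, PS19 and PS19 Zbp1+/-, from 1075, 1633 and 530 reads. Gjc3 (chromosome 5, 137953461 to 137963098, minus strand) encodes the connexin Cx29. Its FPKM was 13.7, 22.2 and 7.93, from 1033, 1670 and 547 reads. These 2 least abundant genes had the smallest ratios of PS19 to WT, 1.52 for Ermn (1.40 to 1.64) and 1.61 for Gjc3 (1.49 to 1.75). They also had the smallest ratios of PS19 Zbp1+/- to WT, 0.537 for Ermn (0.483 to 0.597) and 0.577 for Gjc3 (0.519 to 0.641). Neither order held after the correction for GC content and length. The difference of log2(FPKM + 1) between PS19 and WT was then 0.65 for Mbp, 0.69 for Ermn and 0.72 for Gjc3. That between PS19 Zbp1+/- and WT was -0.53 for Ermn and -0.55 for Gjc3, against -0.85 for Mobp and -0.84 for Mbp. Ermn (38.0% GC) and Gjc3 (43.3%) have the lowest GC content of the 9. Ermn shares 6.52% of its exon bases with Galnt5 on the opposite strand, which had 3, 15 and 0 reads. The longest transcript of each of the 9 genes was matched by no other gene at 90% identity over 50% of its length, and the longest match, in Gjc3, covered 12.8% of the transcript.

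**Figure D2:**
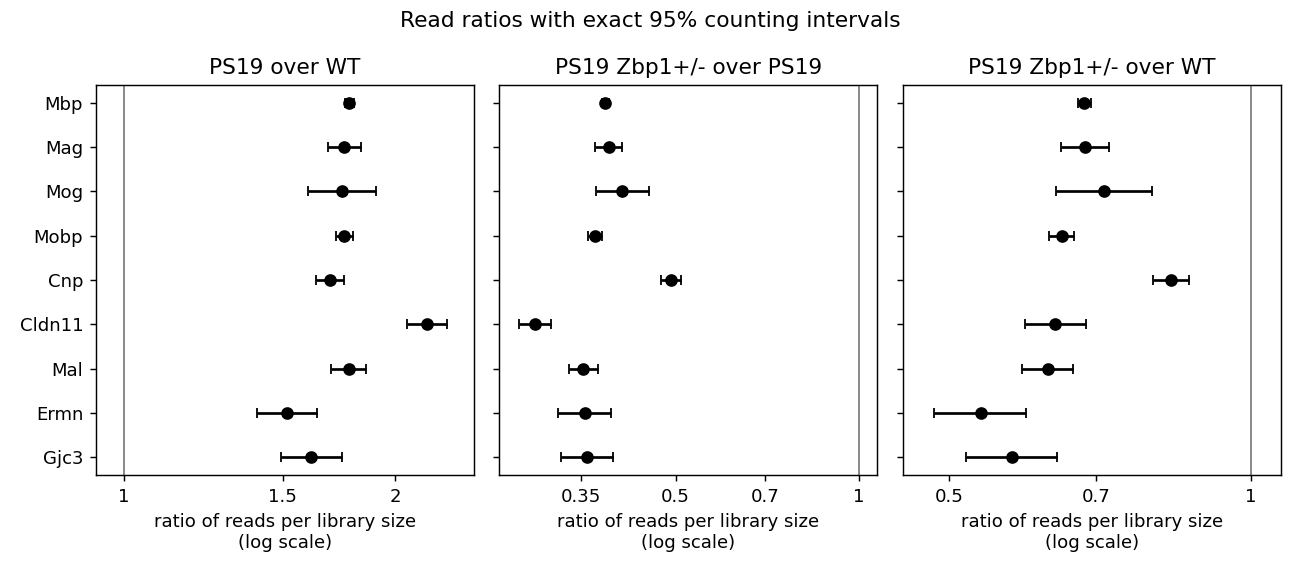
Ratio of reads per library size (log scale, 1 marked by a grey line) for each of the 9 genes in the 3 comparisons, with exact 95% intervals for counting error. Cldn11 stands apart at 2.17 for PS19 over WT and 0.294 for PS19 Zbp1+/- over PS19, and Cnp at 0.832 for PS19 Zbp1+/- over WT.

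Although the total differed by a wide margin, its make-up was nearly the same in the 3 libraries. Of the summed FPKM of the 9 genes Mbp contributed 39.3% (WT), 39.0% (PS19) and 39.4% (PS19 Zbp1+/-). The share of Mag was 6.78%, 6.65% and 6.80%, and that of Mog 4.09%, 3.98% and 4.28%. The shares that moved by the most percentage points were those of Cnp, at 11.6%, 11.0% and 14.2%, and Cldn11, at 9.83%, 11.9% and 9.22%. The share of Mobp was 14.7%, 14.4% and 14.0%, and that of Mal 9.18%, 9.10% and 8.46%. Ermn held 2.48%, 2.10% and 1.96%, and Gjc3 1.99%, 1.79% and 1.68%. The spread between animals of a genotype is unknown, so whether such departures exceed it cannot be said.

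**Figure D3:**
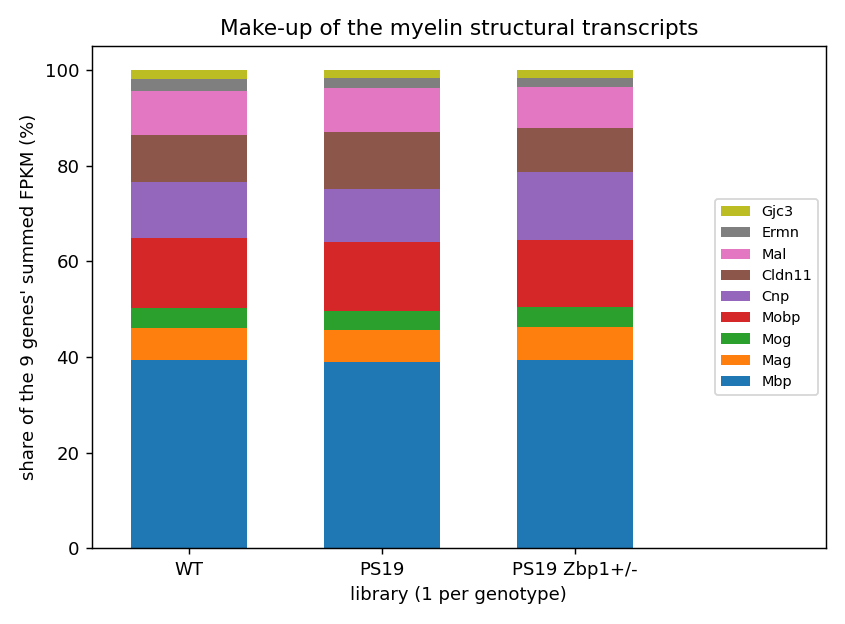
Share of each gene in the summed FPKM of the 9 myelin structural genes (%), stacked for the WT, PS19 and PS19 Zbp1+/- libraries. The Mbp share lies between 39.0% and 39.4%, while that of Cnp is 14.2% in PS19 Zbp1+/- and that of Cldn11 11.9% in PS19.

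For comparison with all genes, the difference of log2(FPKM + 1) between 2 libraries was taken for each protein-coding gene that reached an FPKM of 1 in one or the other library. All 9 genes were higher in PS19 than in WT, where 46.3% of all genes tested were, with a median difference of 0.80 and a range of 0.57 to 1.11, against a median of -0.03 over 12703 genes. Only Cldn11 was higher by at least 2-fold, 1 of 9, where 2.20% of all genes tested were. At 1.5-fold the count was 8 of 9, all but Ermn, against 6.34% of all genes. Ermn lay just under that line at 0.57, and it passed with either smaller pseudocount, each other scaling and the GC and length correction, which gave 9 of 9. The shares of all genes past 1.5-fold under those settings are not given here. All 9 were lower in PS19 Zbp1+/- than in PS19, as were 46.3% of 12772 genes, and all 9 were lower by at least 2-fold, against 5.16%. Their median difference was -1.38, from -1.74 (Cldn11) to -1.01 (Cnp), against 0.04 over all genes. Cnp was thus only just past the 2-fold line.

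Between PS19 Zbp1+/- and WT, the comparison that leaves PS19 out, all 9 genes were again lower, where 49.0% of all genes were. The median difference was -0.62, from -0.83 (Ermn) to -0.26 (Cnp), against 0.01 over 12436 genes. None was lower by 2-fold, against 2.28% of all genes, and 5 of 9 (Mobp, Cldn11, Mal, Ermn and Gjc3) were lower by at least 1.5-fold, against 7.12%. This count was 8 after rescaling to TPM or by total reads, all but Cnp, and 4 after the correction for GC content and length. The level in PS19 Zbp1+/- was therefore below that of WT and not only below that of PS19. The 3 comparisons use each library in 2 of them, so they are not independent of each other.

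The other genes of myelin and of the oligodendrocyte lineage were taken from 6 lists. Among 17 further myelin genes, 16 were higher in PS19 than in WT and 7 by at least 1.5-fold, with a median difference of 0.51. Between PS19 Zbp1+/- and PS19, 14 were lower and 7 by at least 2-fold, with a median of -0.88. Against WT, 13 of the 17 were lower in PS19 Zbp1+/-, 3 by at least 1.5-fold, with a median of -0.26. Tspan2, a tetraspanin of myelin, had the lowest difference between PS19 Zbp1+/- and PS19 in this list, -1.77, with FPKM values of 21.5 (WT), 39.6 (PS19) and 10.9 (PS19 Zbp1+/-). Gjb1, the gene of the connexin Cx32, had the highest difference between PS19 and WT, 1.09, and FPKM values of 6.42, 14.8 and 6.26, so that it ended level with WT. Omg, an oligodendrocyte glycoprotein that neurons also express, was lowest in PS19, with 41.8, 33.8 and 37.6.

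Enzymes and carriers of myelin lipids had medians of the same sign as the 9 structural genes and of smaller size than theirs. Of 10 such genes, 9 were higher in PS19 than in WT and all 10 were lower in PS19 Zbp1+/- than in PS19, at medians of 0.58 and -0.75. None reached 2-fold upward and 2 reached it downward. Against WT, 7 of the 9 that passed the filter were lower in PS19 Zbp1+/-, 3 by at least 1.5-fold, at a median of -0.19. Gltp, which carries glycolipids, had an FPKM of 17.4 (WT), 32.9 (PS19) and 16.6 (PS19 Zbp1+/-). Aspa, which breaks down N-acetylaspartate in oligodendrocytes, had 2.96, 5.38 and 1.41. Elovl7, which elongates fatty acids, had 6.57, 6.54 and 2.90, so it was level between WT and PS19. Among 9 genes of mature oligodendrocytes outside the sheath, all were higher in PS19 than in WT, 4 of them by at least 2-fold, and 6 of 9 were lower by at least 2-fold in PS19 Zbp1+/- than in PS19. Against WT, 8 of these 9 were lower in PS19 Zbp1+/-, at a median of -0.65, close to that of the structural genes. By at least 1.5-fold 7 of them were lower, where 7.12% of all genes were. Apod, a lipid carrier, had an FPKM of 65.5, 148 and 35.8, and Klk6, a secreted protease, 1.61, 8.83 and 0.668. Car2, carbonic anhydrase II, had 93.1, 96.1 and 57.1 and so differed little between WT and PS19.

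Transcription factors and earlier stages of the lineage had medians nearer to 0 in all 3 comparisons. The 9 lineage transcription factors had a median difference of 0.40 between PS19 and WT and of -0.36 between PS19 Zbp1+/- and PS19. Between PS19 Zbp1+/- and WT the median of the 8 that passed the filter was 0.08, with 5 higher and 3 lower. Olig1, which acts throughout the lineage, had an FPKM of 68.4 (WT), 78.3 (PS19) and 106 (PS19 Zbp1+/-). Myrf, which switches on myelin genes, had 7.14, 17.3 and 7.28, and Nkx6-2, another factor of mature cells, 7.54, 14.3 and 5.23. Sox8 had 14.0, 13.1 and 16.3. The 11 precursor markers had medians of 0.33, -0.27 and 0.14 in the comparisons PS19 against WT, PS19 Zbp1+/- against PS19 and PS19 Zbp1+/- against WT. Pdgfra, the growth factor receptor that defines precursors, had an FPKM of 6.23, 6.09 and 4.90, and Ptprz1, a receptor phosphatase that astrocytes share, 15.3, 19.6 and 14.0. The genes of newly formed oligodendrocytes that passed the filter had medians of 0.39, -0.54 and -0.08 in the same comparisons. Between PS19 Zbp1+/- and PS19, 4 of 7 were lower, 2 of them by at least 2-fold, and 3 were higher. Bcas1 followed the myelin genes with an FPKM of 36.3, 64.1 and 20.7, while Rras2 had 7.01, 4.64 and 5.64. Without Bcas1 the whole list summed to 45.6, 48.9 and 48.5.

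The 9 myelin genes can also be set against single genes of the lineage, chosen after the values were known. Their summed FPKM was 43.9 times that of Sox10 in WT, 43.2 times in PS19 and 27.1 times in PS19 Zbp1+/-. Against Olig2 the multiples were 64.9, 80.4 and 32.6, against Myrf 96.9, 71.6 and 64.7, and against Pdgfra 111, 203 and 96.2. In PS19 the myelin genes thus stood higher in the same measure as Sox10 and in lesser measure than Myrf, and in PS19 Zbp1+/- they were low against all 4.

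**Figure D4:**
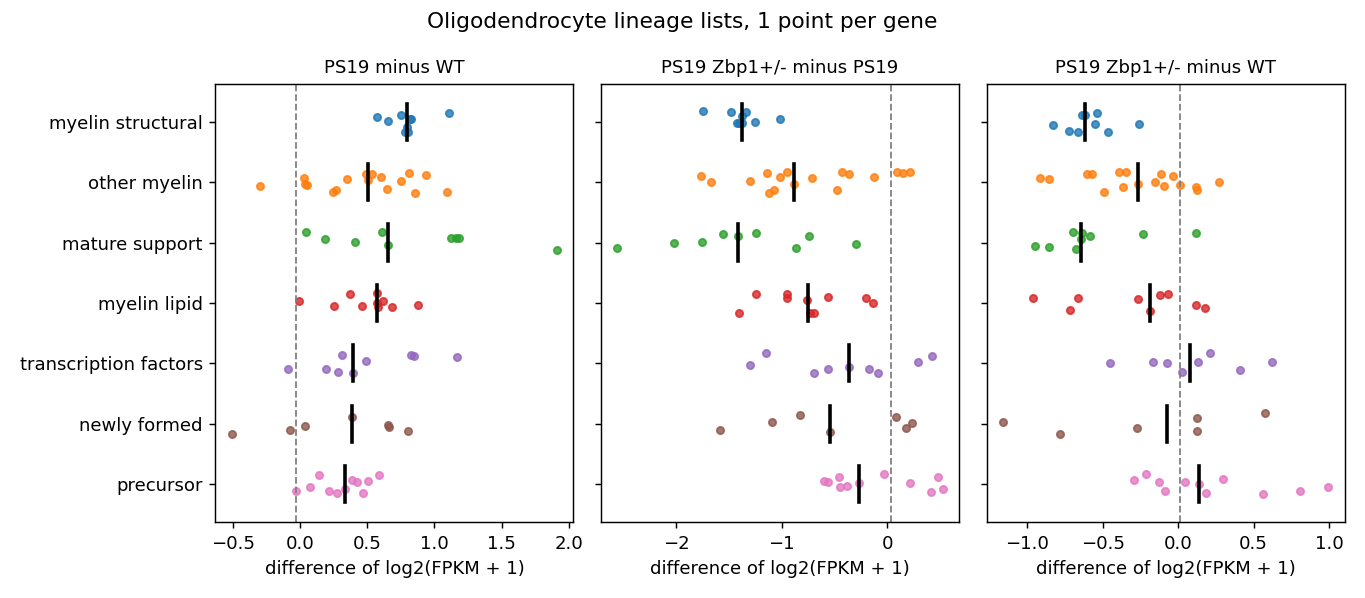
Differences of log2(FPKM + 1) in the 3 comparisons for 7 oligodendrocyte lineage lists, 1 point per protein-coding gene that passed the filter, with a black bar at the list's median and a dashed line at the median of all genes tested. Myelin structural genes lie at a median of 0.80, -1.38 and -0.62, and precursor markers at 0.33, -0.27 and 0.14.

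Outside these lists, the 5 genes nearest to the myelin medians were sought among 4748 protein-coding genes with a mean FPKM of at least 10, by distance in the plane of the 2 differences that involve PS19. They were Ppp1r14a, an inhibitor of myosin phosphatase, with an FPKM of 12.2 (WT), 21.7 (PS19) and 7.63 (PS19 Zbp1+/-), then Sdc4, a syndecan, with 32.5, 56.5 and 20.5, and Anxa5, an annexin, with 28.6, 49.0 and 18.8. Mt1, a metallothionein, had 214, 349 and 130, and Padi2, a peptidylarginine deiminase, 9.80, 17.4 and 5.26. In all, 39 of the 4748 genes lay no farther from the medians than Cldn11, the farthest of the 9, at 0.48 log2 units. Likeness over 3 libraries is a loose measure, and Sdc4, Anxa5 and Mt1 are expressed by many cell types.

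Marker lists of other cells give the setting of these values. Neuron markers summed to an FPKM of 821 (WT), 711 (PS19) and 1063 (PS19 Zbp1+/-). Without Slc17a7 (206, 172 and 371) the neuron list came to 616, 539 and 692. Of its 7 genes, 5 were higher and 2 lower in PS19 Zbp1+/- than in WT. Hippocampal neuron markers summed to 238, 181 and 259. The last sum rests on Fibcd1 (37.0, 27.0 and 111), a marker of CA1 neurons, without which the hippocampal list came to 201, 154 and 148. Of its 9 genes that passed the filter, 8 were lower in PS19 Zbp1+/- than in WT, at a median difference of -0.43. No gene of either list was at 0 in any library. Genes of axons and nodes of Ranvier, the partners of myelin, summed to 250, 265 and 292, in another order than the myelin genes. Astrocyte markers were 375, 1199 and 409, with 8 of 8 higher in PS19 than in WT and 8 of 8 lower in PS19 Zbp1+/- than in PS19. Most of that sum in PS19 was Gfap, an intermediate filament of reactive astrocytes, and without it the list came to 277, 431 and 297. Its median difference between PS19 and WT was 0.56. Microglia markers were 177, 625 and 188, with 8 of 9 higher and then 9 of 9 lower. These 2 glial lists, like the myelin genes, were highest in PS19, and their part in the myelin values was not tested. Unlike the myelin genes they had a median difference near 0 between PS19 Zbp1+/- and WT, 0.09 and 0.06.

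Choroid plexus markers set the PS19 Zbp1+/- library apart. All 8 were at least 2-fold lower there than in WT and than in PS19, and without Ttr they summed to an FPKM of 92.5 (WT), 72.8 (PS19) and 3.76 (PS19 Zbp1+/-). Ependyma markers summed to 31.2, 27.4 and 7.69, and red blood cell markers to 17.5, 14.8 and 2.87. The meningeal list had 17.8, 10.4 and 23.0, of which Dcn made up 11.3, 4.70 and 20.7. The other 4 meningeal markers summed to 6.44, 5.75 and 2.32. Of the 4 meningeal genes that passed the filter, 3 were lower in PS19 Zbp1+/- than in PS19, as Cldn11 was. Between PS19 and WT, where Cldn11 was higher, 2 of the 4 were higher and 2 lower, at a median difference of -0.21. The part of meningeal cells in the Cldn11 values was not tested. Markers of thalamus, striatum and cortex summed to 56.8, 67.3 and 66.0, with differences from -3.16 to 1.72 between PS19 Zbp1+/- and PS19, 7 of 13 above 0 and 6 below. Prkcd, abundant in thalamus and chosen here after its values were seen, had an FPKM of 8.15 (WT), 23.1 (PS19) and 1.69 (PS19 Zbp1+/-), in the same order as the myelin genes. Rgs16 and Rorb shared that order, and the other genes of the list did not, among them the thalamic markers Slc17a6 (2.98, 7.48 and 4.46) and Lhx9 (1.77, 1.60 and 1.52). Fezf2, of deep cortical layers and likewise chosen afterwards, had 14.4, 9.62 and 33.9, and without it the list came to 42.4, 57.7 and 32.1. What part a different extent of dissected tissue had in the myelin values was not tested. Pmp2, a marker of peripheral nerve myelin, had 0 reads in all 3 libraries.

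**Figure D5:**
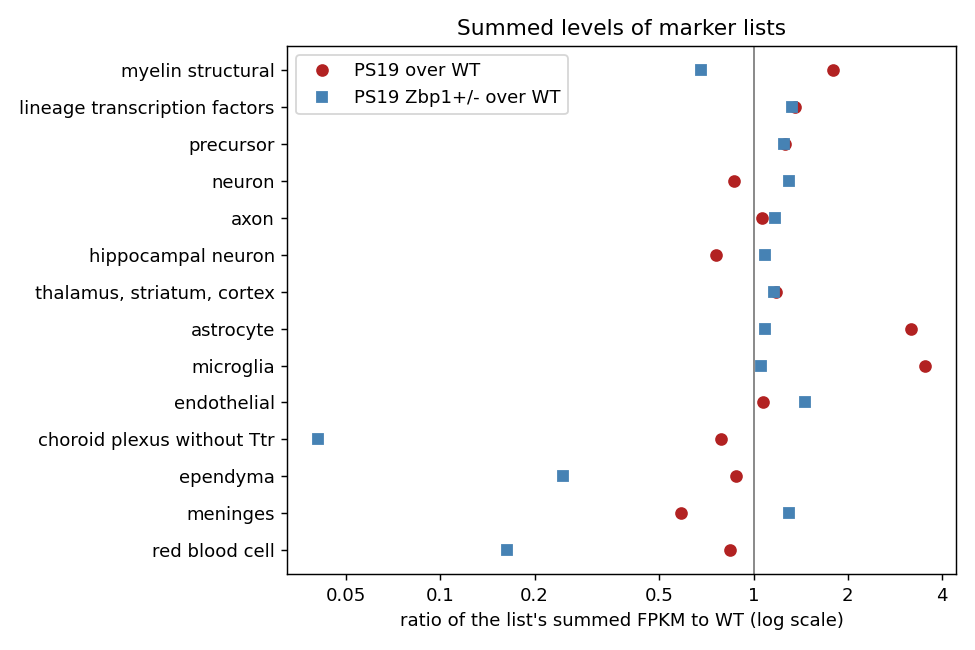
Summed FPKM of each marker list in PS19 (red circles) and PS19 Zbp1+/- (blue squares) as a ratio to WT, on a log scale with a grey line at 1. Myelin structural genes stand at 1.79 and 0.681, astrocyte markers at 3.20 and 1.09 (1.56 in PS19 without Gfap), microglia markers at 3.53 and 1.06, and choroid plexus markers without Ttr at 0.786 and 0.0406.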

How the data were processed

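Hippocampal RNA of 3 mouse genotypes, 1 library each, was analysed. Per the labels' protocols, extraction used TRIzol and library preparation an NEB Next Ultra RNA kit. Per the submitters' processing notes, the tools were Trim Galore 0.6.5, STAR 2.5.3a and featureCounts 2.0.4, and the build mm39. Gene positions in the table equal those of GENCODE M21 (GRCm38) for 98.3% of the 54409 gene IDs found there, so positions are given on GRCm38. Strand use in counting and the test, if any, are not given in the sources used here.

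The authors deposited FPKM values per gene. FPKM times gene length fell on whole multiples of 1 step in each library, within 2.7e-05 of a whole read, which gave the reads. The steps imply library sizes of 17253479, 17287957 and 15826984 reads (WT, PS19, PS19 Zbp1+/-), which are not the sums of reads, so the deposited values carry a further scaling. Read ratios per implied library size have exact (Clopper-Pearson) 95% intervals, for counting error only, since the sources used here name no molecular identifiers. Differences used log2(FPKM + 1), which understates changes of weakly expressed genes, and each protein-coding gene reaching an FPKM of 1 in one or the other library. A threshold of 2-fold was used, with 1.5-fold beside it.

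The members and lists (160 genes in 19 lists) were chosen with earlier results of these data known. Named by rule were all members, in each lineage list the gene with the highest mean FPKM, the highest and lowest difference between PS19 and WT and the lowest between PS19 Zbp1+/- and PS19, and the 5 genes nearest to the member medians. Some genes that the rule names are not reported here. Genes left out of a marker list were chosen after the data were seen, as those with the widest range of FPKM. Symbols of 27 genes that the table holds as dates, septins among them, were restored by gene ID. Near-identical copies were sought with BLAST 2.17.0. The procedure was tested on simulated data. Software was scipy 1.17.1, pandas 2.3.3, numpy 2.4.6 and matplotlib 3.10.9 under Python 3.11.15. The alternatives were other pseudocounts, 3 scalings, no filter, every biotype, other thresholds, leaving out the most changed member, and, added after the data were seen, a correction for GC content and length.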

Additional observations from a re-analysis of the deposited data

How the results depend on the processing

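No direction of any of the 9 genes turned under another pseudocount, scaling or correction. The median difference between PS19 and WT (0.80) was 0.94 after rescaling to TPM, 0.83 with scaling by total reads, 0.83 with scaling by the median ratio and 0.82 after the correction for GC content and length, which was added after seeing the data. That between PS19 Zbp1+/- and PS19 (-1.38) was -1.44 and -1.43 with pseudocounts of 0.1 and 0.5, -1.72 with TPM, -1.57 with total reads, -1.43 with the median ratio and -1.50 after the GC and length correction. That between PS19 Zbp1+/- and WT (-0.62) was -0.78 with TPM, -0.77 with total reads, -0.58 without Ermn, the most changed gene, and -0.55 after the GC and length correction. TPM moved the median of all genes to 0.11, -0.25 and -0.15 in the 3 comparisons, and relative to it the myelin medians were 0.83, -1.47 and -0.63. Scaling by total reads moved it to 0.0033, -0.12 and -0.13, and relative to that the myelin medians were 0.83, -1.44 and -0.65. The share of higher genes among all genes past 2-fold between PS19 Zbp1+/- and PS19 was 27.9%, against 10.4% with TPM and 14.6% with total reads. Between PS19 Zbp1+/- and WT it was 32.0%, against 18.5% and 17.3%.

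The count of myelin genes past 2-fold between PS19 and WT was 0 in place of 1 without Cldn11 and 8 at a threshold of 1.5-fold. Of all genes tested, 2.20% were past 2-fold and 6.34% past 1.5-fold in that direction. Between PS19 Zbp1+/- and WT it was 1 (Ermn) in place of 0 with TPM and 5 at 1.5-fold. With TPM 6.34% of all genes were lower by 2-fold there, in place of 2.28%, and 7.12% were lower by 1.5-fold in the main setting. At 4-fold the count of myelin genes was 0 between PS19 and WT and 0 between PS19 Zbp1+/- and PS19, and the shares of all genes are not given here. No paired analysis was possible because each genotype has 1 library.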

Other observations

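The genes that flank the 9 myelin genes on their chromosomes had median differences near 0 in all 3 comparisons. The nearest expressed, non-overlapping protein-coding gene on each side, 18 genes in all, had a median difference of log2(FPKM + 1) of -0.0014 between PS19 and WT, 0.03 between PS19 Zbp1+/- and PS19 and 0.10 between PS19 Zbp1+/- and WT. Of the 18, 9 were higher and 9 lower in PS19 than in WT, where 46.3% of all genes tested were higher. Zfp57, which lies 108 bases from Mog, had an FPKM of 2.01 (WT), 1.41 (PS19) and 2.20 (PS19 Zbp1+/-), opposite in order to Mog. Zfp236, 7956 bases from Mbp, had 4.82, 5.31 and 5.15. The 2 neighbours higher by at least 1.5-fold in PS19 than in WT were Cd22, beside Mag, with 1, 90 and 1 reads, and Cyp3a13, beside Gjc3, with 25, 79 and 13 reads. Of all genes tested 6.34% were higher by at least that much. Cd22 is a receptor of B cells that microglia can also express. These neighbours were described after their values were seen.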
